A study of Mus musculus with 12 samples.

Results

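The arrays described here are 3 of the 6 siRNA arrays of a microRNA study in the mouse cell line C3H10T1/2, set against all 6 of its antimicroRNA arrays, which makes 9 of the 12 arrays in all. C3H10T1/2 is an embryonic line with properties of mesenchymal stem cells. The study transfected it with siRNA-140, a mimic of miR-140, or with siRNA-96 as its control, and in a second experiment with LNA-antimicroRNA-140, which blocks the cells' own miR-140, or with LNA-antimicroRNA-449 as its control. LNA is a locked nucleic acid that binds its target tightly. Each of these 4 groups had 3 arrays, and no group was left untransfected. Every siRNA array thus received another kind of molecule in another experiment than every antimicroRNA array, so experiment and delivered molecule cannot be told apart. Neither doses nor times are known here, and nothing in the labels states that replicates came from separate cultures, so the p-values measure only a spread that may be technical.

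The 3 siRNA arrays were chosen by a measured value: the log2 level of 1 probe set of Vnn1, a gene for a pantetheinase, had to lie below 5.5. This probe set read 3.04 in siRNA-140 replicate 3, 3.05 in replicate 2 of siRNA-96 and 3.19 in its replicate 3. It read 8.21, 8.38 and 8.43 in siRNA-140 replicate 1, siRNA-140 replicate 2 and siRNA-96 replicate 1, which are called the other 3 siRNA arrays. The antimicroRNA arrays ranged from 4.36 to 5.42, and so lay between both sets of siRNA arrays. The chosen set cuts across the labels: siRNA-140 replicate 3 stands with 2 arrays of the other molecule. Because a readout chose them, the differences between these 3 arrays and the antimicroRNA arrays are given as a description with no p-value. The only test used here compares all 6 siRNA arrays with all 6 antimicroRNA arrays by label alone, with limma and Benjamini-Hochberg adjustment over 45037 probe sets; it is called the label test.

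The 3 arrays are named for the interferon response. Cells carry sensors of foreign RNA and DNA, whose signal leads to the making of type I interferons, and these bind a receptor whose signal activates transcription factors, Stat2 and Irf9 among them. These factors bind a DNA element, the interferon-stimulated response element, ahead of many genes whose products block viruses, present antigen or amplify the response, while a few, such as Usp18, dampen it. Fibroblasts and other mesenchymal cells are able to mount this response.

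Ifit1, Ifit3, Bst2 and Irf7, which are among the 15 genes with the largest higher values in these arrays, are shown first by the 250 bases ahead of their start, from RefSeq (GRCm38.p6). Capitals mark a match to the core of the interferon-stimulated response element, GAAA and, after any 2 bases, GAAA again, on either strand. The window of Ifit1 lies on the plus strand at chr19:34640639-34640888, Ifit3 on the plus strand at chr19:34583279-34583528, Bst2 on the minus strand at chr8:71537473-71537722 and Irf7 on the minus strand at chr7:141266425-141266674. Usp18 is named only.
Ifit1: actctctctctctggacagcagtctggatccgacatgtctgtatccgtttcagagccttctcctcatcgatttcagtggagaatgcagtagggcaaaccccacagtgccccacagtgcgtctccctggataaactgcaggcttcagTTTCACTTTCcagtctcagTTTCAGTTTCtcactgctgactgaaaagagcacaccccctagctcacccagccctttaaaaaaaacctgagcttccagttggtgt
Ifit3: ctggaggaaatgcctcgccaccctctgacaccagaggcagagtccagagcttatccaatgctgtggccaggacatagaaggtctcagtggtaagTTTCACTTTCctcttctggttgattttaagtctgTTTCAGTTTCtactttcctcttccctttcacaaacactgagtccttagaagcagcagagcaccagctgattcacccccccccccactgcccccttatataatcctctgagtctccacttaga
Bst2: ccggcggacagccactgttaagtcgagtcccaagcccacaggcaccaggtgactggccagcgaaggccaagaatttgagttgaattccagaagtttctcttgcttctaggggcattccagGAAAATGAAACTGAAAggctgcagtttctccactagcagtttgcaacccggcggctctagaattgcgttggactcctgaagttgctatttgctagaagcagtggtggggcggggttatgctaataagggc
Irf7: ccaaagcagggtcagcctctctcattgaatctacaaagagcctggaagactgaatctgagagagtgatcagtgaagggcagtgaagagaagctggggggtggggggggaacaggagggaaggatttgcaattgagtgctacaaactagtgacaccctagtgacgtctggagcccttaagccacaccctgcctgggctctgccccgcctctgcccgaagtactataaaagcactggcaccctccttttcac
The matches began 104 and 85 bases before the start of Ifit1, 156 and 122 before that of Ifit3, and 130 and 124 before that of Bst2, where they overlap each other. The window of Irf7 held no match. Of the 15 genes with the largest higher values, 11 had a promoter in the table: Ifit1, Ifit3, Bst2 and Gbp3 held 2 matches (Gbp3 in 1 of its windows), Igtp, Irgm2 and Gbp7 held 1, and Irf7, Xaf1, Oasl2 and Postn held 0. Of all 32851 promoter windows of this length in the table, 978 (2.98%) held at least 1 match. The gamma-activated site, TTCNNNGAA, occurred in 2306 (7.02%) of them, and among these 4 genes only in Bst2, where it shared 3 bases with a capital stretch. Only 90 of the 127 genes counted higher below had a promoter in the table, 70.9%, so a count of motifs over the genes is void. The 15 genes were picked by their values in these arrays, so their matches are no test against the share of all windows. A match is a description of the letters and not of binding.

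All 12 arrays held 45101 probe sets. The deposited array medians were 3.96 to 4.02 on the siRNA arrays and 4.32 to 4.38 on the antimicroRNA arrays, and the columns were therefore brought to 1 distribution by quantile normalization before any comparison; without it, the median probe set was 0.33 lower in the 3 siRNA arrays (a log2 difference of -0.33). Their 18S rRNA control signals were 5.84, 5.55 and 8.07, against 5.74 to 10.05 on the antimicroRNA arrays, so siRNA-96 replicate 3 was the only one of the 3 raised in this measure. The 3' minus 5' signal of Actb, a sign of RNA quality, was 0.18 to 0.37 on the 12 arrays. Of 17 mesenchymal markers of the labelled cell line, 0 were counted in either direction by the rule below, and the label test called 1 higher and 4 lower. Over all genes the rule counted 0.698% higher and 0.484% lower, and the label test called 16.3% higher and 15.4% lower. Vim, an intermediate filament gene, read 13.64 to 13.65 in the 3 siRNA arrays and 13.60 to 13.64 in the antimicroRNA arrays. The growth factor receptor genes Pdgfra and Pdgfrb fell by label, by 1.01 ± 0.14 (limma adjusted p = 0.00027) and 0.56 ± 0.07 (adjusted p = 0.000131). The transcription factor gene Prrx1 fell by 0.48 ± 0.06 (adjusted p = 0.000102). In the 3 siRNA arrays Pdgfra, Pdgfrb and Prrx1 differed by -0.70, -0.44 and -0.55. Cdh11, another marker of this list, went the other way there, by 0.38 (-0.05 in another probe set). The differences of the list ran from -0.7 to 0.38, with a median of -0.03. Other probe sets differed there by -0.13 and -0.34 for Pdgfra, -0.36 for Pdgfrb and -0.04 to -0.81 for Prrx1.

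A gene was counted higher where the mean of the 3 siRNA arrays exceeded that of the 6 antimicroRNA arrays by at least 1 on the log2 scale, a 2-fold difference, and all 3 lay above all 6; counted lower means the reverse. Of 18193 genes, 127 (0.698%) were counted higher and 88 (0.484%) lower. The 88 include Vnn1 itself (-1.56), by another probe set than the one that chose the arrays. Differences on the higher side reached further: 39 of the 127 were at least 2 log2 units, 14 at least 3 and 3 at least 5, while 4 of the 88 lower genes passed 2 and 0 passed 3. Just inside the threshold were Foxd3 (1.003) and Mme (1.005), and just outside were Tgfb3 (1.0 as rounded) and Mapt (0.981). On the lower side Syn3 and Bmp2k (each -1.002) were inside, and Rufy1 (-0.998) and Casp2 (-0.995) outside. On the deposited values without further normalization the counts were 69 higher and 440 lower, and 157 of the 215 genes were counted again. Genes of the interferon lists made up 46 of the 127 higher genes and 0 of the 88 lower genes. These lists are not complete, and the other higher genes include some that interferon also induces, such as Cxcl10 and Ccl5.

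Usp18, a protease that removes the ubiquitin-like protein ISG15 and restrains the interferon receptor, read 8.18 in siRNA-140 replicate 3, 9.10 in replicate 2 of siRNA-96 and 9.48 in its replicate 3. The antimicroRNA arrays ran from 2.93 to 4.30 with a median of 3.23, and the other 3 siRNA arrays read 4.03, 4.79 and 4.85. The 3 arrays lay above the other 9, and their mean exceeded that of the antimicroRNA arrays by 5.52. Ifit1, which binds viral RNA and blocks its translation, read 8.07, 9.18 and 9.89 in the same order. Its antimicroRNA values were 2.84 to 4.80, median 3.06, with the highest in antimicroRNA-140 replicate 2, and the other siRNA arrays read 5.30, 5.69 and 5.42. The difference of 5.73 was the largest measured, and the other 3 siRNA arrays also stood above all 6 antimicroRNA arrays, by 2.15 on average. Irf7, the transcription factor that amplifies interferon production, read 6.76, 7.48 and 7.82 against 3.46 to 3.80, median 3.55. Its difference was 3.77, and the other siRNA arrays again lay between, at 4.84, 4.90 and 5.47. In the label test Usp18 rose by 3.34 ± 0.79 (SE; adjusted p = 0.00646), Ifit1 by 3.94 ± 0.69 (adjusted p = 0.00101) and Irf7 by 2.62 ± 0.39 (adjusted p = 0.000332). With siRNA-140 against antimicroRNA-140 alone, limma gave an adjusted p of 0.223 for Usp18 and 0.0771 for Ifit1, while Irf7 was called in every alternative run. The antimicroRNA means of these 3 genes lay below the median probe set of the normalized arrays (4.16 to 4.17), as did those of 18 of the 46 interferon genes counted higher. No detection calls were used here, so whether such probe sets stood above background there is not known, and no fold is given for them.

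**Figure D1:**
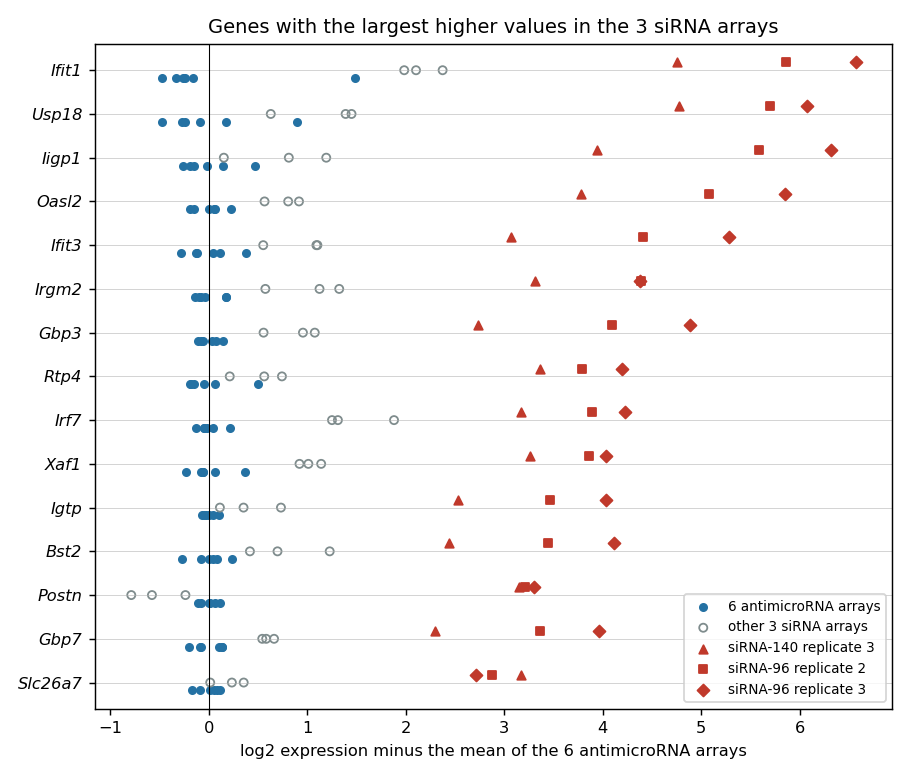
The 15 genes with the largest higher differences, each array plotted as its log2 value minus the mean of the 6 antimicroRNA arrays (x axis); red marks are the 3 chosen siRNA arrays, open grey circles the other 3 and blue points the antimicroRNA arrays. For all of these but Slc26a7, the triangle of siRNA-140 replicate 3 is the lowest of the red marks, narrowly so for Postn, and 1 blue point of Ifit1 stands apart, antimicroRNA-140 replicate 2, whose level before subtraction was 4.80.

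The probe sets of the interferons themselves and of their receptors did not share these differences. None of 12 measured genes was counted, where 0.698% of all genes were counted higher and 0.484% lower. The differences of the 12 ran from -0.17 to 0.47 with a median of 0.09, against 0.01 over all genes. Ifnb1, the interferon of fibroblasts, read 3.95, 4.21 and 4.54 in the 3 siRNA arrays and 3.75 to 4.41, median 4.18, in the antimicroRNA arrays, so that the groups overlapped. The receptor chains Ifnar1 and Ifnar2 differed by -0.01 and -0.03, and Ifng by 0.11. Ifna1 was the single member past the label test, where it rose by 0.51 ± 0.07 (limma adjusted p = 0.000166; 0.0863 on the deposited values). It read 4.60, 4.71 and 4.93 in the 3 arrays and 4.72, 4.83 and 4.91 in the other 3 siRNA arrays, against 4.19 to 4.37, so both siRNA sets stood at the same height. The genes for interferons are close copies of one another, and probe sets may not tell them apart. Ifnb1 lay around the median probe set of the normalized arrays (4.16 to 4.17). Without detection calls, whether such probe sets stood above background is not known, so these values do not show that interferon transcripts were unchanged.

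Of 19 measured sensors and adaptors, 5 were counted higher and 0 lower, with a median difference of 0.47. Dhx58, a regulator of RNA sensing, read 5.34, 6.21 and 6.68 against 2.92 to 3.55, median 3.16, a difference of 2.90. Ddx58, which encodes the RNA sensor RIG-I, differed by 2.13 and read 8.74, 9.01 and 9.43 against 6.78 to 7.15. Ifih1, which encodes the sensor MDA5 of long double-stranded RNA, differed by 1.84. Eif2ak2, the kinase PKR that halts translation on double-stranded RNA, differed by 1.23 and Ifi204, a DNA sensor of the p200 family, by 1.03. Other probe sets differed by 0.92 and 0.16 for Dhx58 and by 0.63 and 1.21 for Eif2ak2. For Ddx58 the other siRNA arrays read 7.4, 6.82 and 7.37 and overlapped the antimicroRNA arrays, whereas those of Dhx58 (3.98, 4.49 and 3.80) lay above them. The label test called 10 of the 19 higher and 1 lower, where 16.3% of all 18193 genes were called higher and 15.4% lower.

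Among 14 signalling factors, 3 were counted higher: Irf7, Irf9 and Stat2. Irf9 and Stat2 encode partners in the complex that binds the response element. Irf9 read 8.13, 8.14 and 8.36 against 5.56 to 6.34, median 5.70, a difference of 2.36. Stat2 read 6.70, 7.06 and 7.42 against 4.87 to 5.5, median 4.96, a difference of 2.00. The other siRNA arrays lay above all 6 antimicroRNA arrays for both, at 6.35 to 6.45 for Irf9 and 5.56 to 5.73 for Stat2, by a narrow margin for Irf9. Socs1, an inhibitor of the pathway, differed by 0.65 and Irf1 by 0.40, neither counted. The label test called 7 of the 14 higher and 1 lower.

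Of 10 measured Ifit and oligoadenylate synthetase genes, whose products seize viral RNA or make the activator of RNase L, 7 were counted higher, with a list median of 1.54. Oasl2 read 6.33, 7.63 and 8.41 against 2.36 to 2.78, a difference of 4.90. Ifit3, a partner of Ifit1, read 8.66 in siRNA-140 replicate 3 and up to 10.87 in the siRNA-96 arrays, against 5.31 to 5.96, a difference of 4.25. Both had the other 3 siRNA arrays above all antimicroRNA arrays, by 0.77 and 0.92 on average. Oas1a differed by 2.19, and here the other siRNA arrays (5.54, 5.79 and 5.75) lay within the antimicroRNA range of 5.57 to 5.79 or just under it. Oas2 differed by 1.51 and rose by 1.13 ± 0.15 in the label test (limma adjusted p = 0.000197). Members of this family share sequence, so a probe set may read more than its own gene. The label test called 8 of the 10 higher and 1 lower.

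All 11 measured interferon-induced GTPases, which attack the vacuoles and capsids of intruders, were counted higher, with a list median of 2.60. Iigp1 read 7.09, 8.73 and 9.47 against 2.89 to 3.62, median 3.07, a difference of 5.28; another of its probe sets differed by 3.98. Irgm2 differed by 4.02, Gbp3 by 3.91, Igtp by 3.34, Gbp7 by 3.21 and Gbp2 by 2.60. Gbp2 spread widely over the 3 arrays, at 4.62, 5.27 and 6.63, yet all lay above the antimicroRNA range of 2.73 to 3.09. The other 3 siRNA arrays were above all 6 antimicroRNA arrays for 6 of the 11. The label test called 11 of 11 higher; Iigp1 rose by 3.0 ± 0.82 (limma adjusted p = 0.014; 0.352 with siRNA-140 against antimicroRNA-140 alone, and 0.0542 with an intensity trend).

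Of 11 measured genes of ISG15 conjugation and the interferon-linked TRIM ubiquitin ligases, 4 were counted higher. Beside Usp18 these were Trim30a, at 5.15, 6.39 and 7.15 against 3.34 to 3.87 (difference 2.67), Trim12c (1.69) and Trim21 (1.21). Trim21, an antibody receptor inside cells, read 4.89, 4.70 and 5.07 in the other siRNA arrays, toward or under the low end of the antimicroRNA range of 4.97 to 5.37. Of 31 other effectors, 12 were counted higher and 0 lower. Rtp4 read 9.21, 9.64 and 10.04 against 5.66 to 6.35 (difference 3.78). Xaf1, linked to cell death, read 8.90, 9.50 and 9.67 against 5.41 to 6.01 (3.71). Bst2, which tethers budding virus to the cell surface, read 7.09, 8.10 and 8.77 against 4.38 to 4.89 (3.33). Parp14 and Parp9, which encode ADP-ribosyltransferases, differed by 2.59 and 2.55 and Lgals3bp by 2.20; another probe set of Parp14 differed by -0.17. Other probe sets of Rtp4 (1.3), Xaf1 (0.63) and Trim12c (0.33) differed less than those given, and that of Trim21 (2.56) more.

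In antigen presentation the largest difference was 1.36. Of 17 measured genes, 4 were counted higher: Tapbp, which loads peptides onto MHC class I, by 1.36, the immunoproteasome subunit genes Psmb10 and Psmb9 by 1.26 and 1.19, and the peptide-trimming Erap1 by 1.09. Psmb10 read 7.16, 7.48 and 7.74 against 6.07 to 6.29, with the other siRNA arrays between at 6.72, 7.0 and 6.78. B2m, the light chain of MHC class I, read 12.50, 12.62 and 12.78 against 12.07 to 12.21, a difference of 0.52 without overlap. Of 25 inflammatory genes outside the interferon lists, 2 were counted higher, both chemokine genes that interferon also induces. Cxcl10 read 4.38, 5.66 and 6.07 against 2.58 to 3.15 (2.49), and Ccl5 read 5.83, 6.17 and 6.19 against 3.97 to 4.26 (2.02).

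Over the 8 interferon lists together, 46 of 125 measured genes were counted higher and 0 lower. Their median difference was 0.49, against 0.01 over all genes; on the deposited values it was 0.15 against -0.33. The label test called 64 higher and 5 lower. Oasl1, which read 0.39 lower in the 3 arrays (a difference of -0.39), and Sp110 (-0.53), both named here after their values were seen, went against their lists. Since the interferon genes named this set of arrays, their counts describe it and do not support it.

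**Figure D2:**
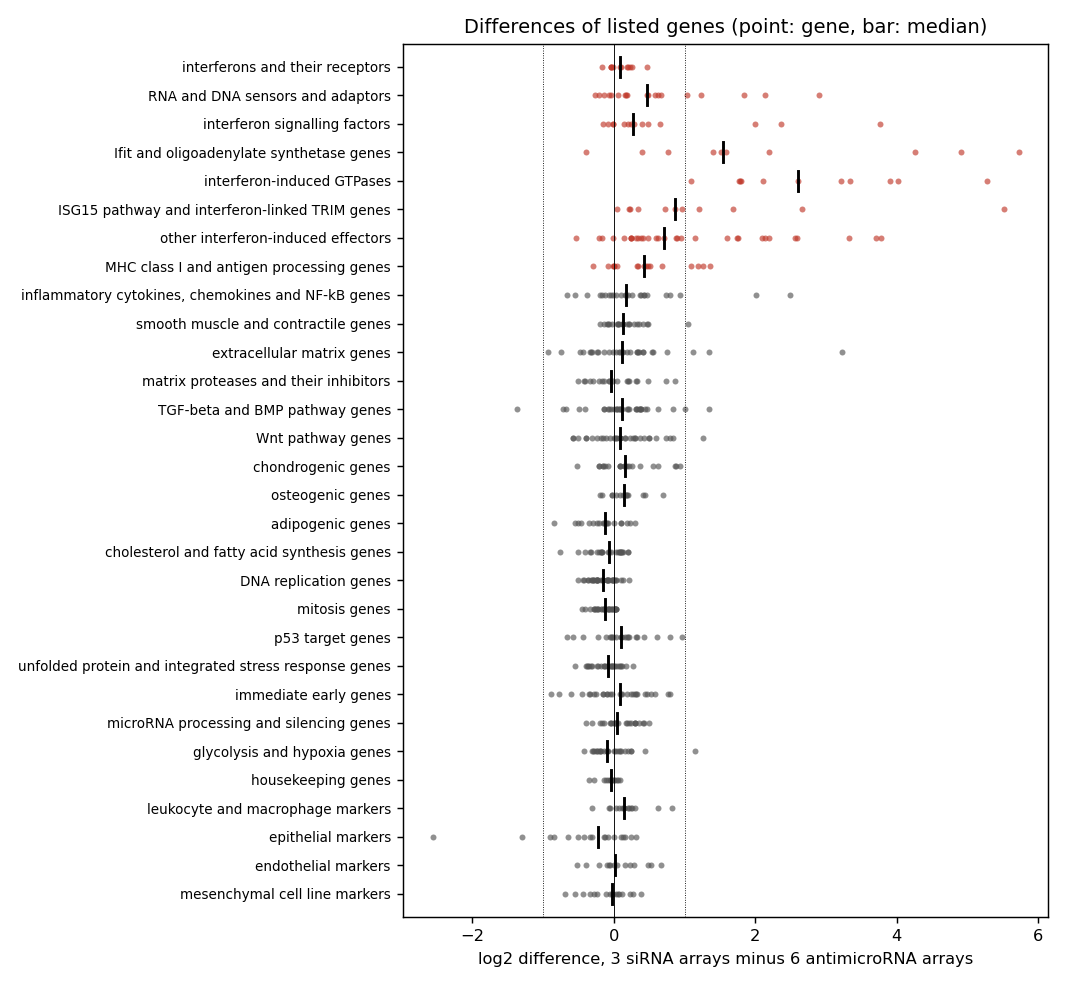
Each point is a gene of a list, placed by the log2 difference between the 3 siRNA arrays and the 6 antimicroRNA arrays (x axis); black bars are list medians, red lists the 8 interferon lists and dotted lines the threshold of 1. The interferon GTPases are all past 1 with a median of 2.60, while the interferons and receptors stay between -0.17 and 0.47.

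The 3 siRNA arrays were not equal in the interferon genes. Of the 46 counted higher, 44 were lowest of the 3 in siRNA-140 replicate 3, and 42 were highest in siRNA-96 replicate 3. Among the 81 other genes counted higher these numbers were 42 and 37, and among all 18193 genes they were 5318 and 7231. The 81 are genes outside the lists and include interferon-induced ones such as Cxcl10, so they are not a set free of the response. The median gene exceeded the antimicroRNA mean by 1.61 in siRNA-140 replicate 3, 2.26 in replicate 2 of siRNA-96 and 2.49 in its replicate 3. The median range over the 3 arrays was 1.02 for these genes, up to 2.38, against 0.25 for the 81 other genes counted higher, 0.24 for the 88 counted lower and 0.18 over all genes. In the other 81 the median excesses were 1.16, 1.28 and 1.24. The interferon median was 1.57 for siRNA-140 replicate 3 over antimicroRNA-140. For siRNA-96 replicates 2 and 3 over antimicroRNA-449, the control of the other experiment, it was 2.39. siRNA-140 replicate 3 is the only array of its molecule here, so molecule and array cannot be told apart in this order. Over all 12 arrays by label, limma compared the siRNA-96 minus antimicroRNA-449 and siRNA-140 minus antimicroRNA-140 differences and called 0 of 45037 probe sets. The smallest adjusted p was 0.936, and 1392 probe sets had an unadjusted p under 0.05. Both siRNA groups held arrays on either side of the Vnn1 threshold, so interferon genes such as Usp18 spread widely within them. This comparison therefore cannot decide the order within the 3 chosen arrays.

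The other 3 siRNA arrays were then placed beside each difference. Both comparisons use the same 6 antimicroRNA arrays. The genes were counted for their difference in the chosen 3, so a smaller share in the other 3 was favoured beforehand. The shares below are therefore a description only. For 40 of the 46 interferon genes the other siRNA arrays showed from 0 to under 0.5 of the difference that the chosen 3 showed, for 1 they showed 0.5 or more, and for 5 they lay on the opposite side of the antimicroRNA mean. Among the 81 other genes counted higher these numbers were 33, 26 and 22, and among the 88 counted lower they were 43, 21 and 24. Whether the 2 sets of siRNA arrays differed was not tested, since Vnn1 had separated them.

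**Figure D3:**
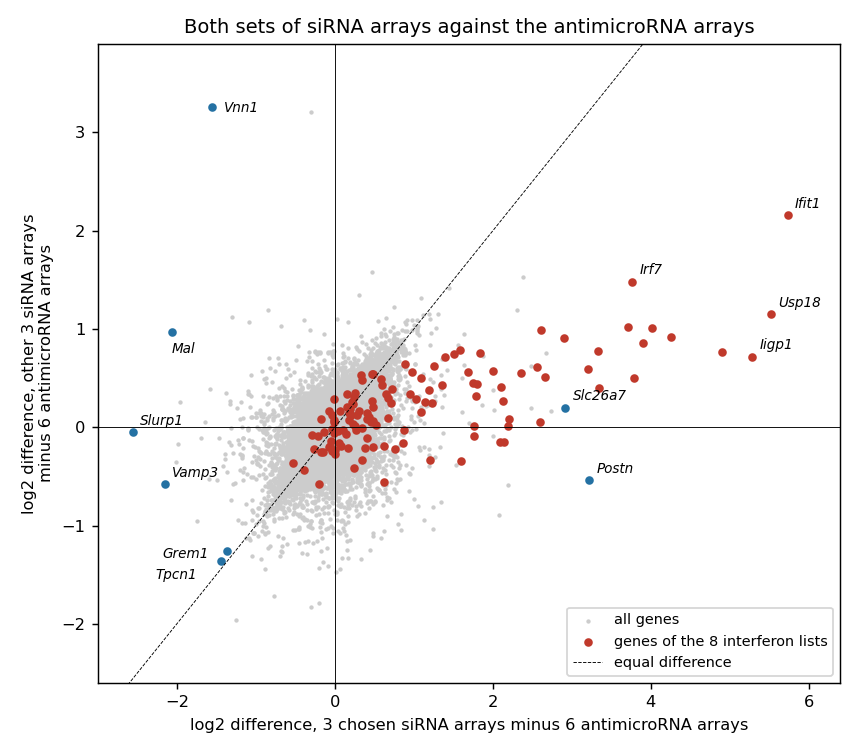
Each point is 1 of 18193 genes, placed by the log2 difference from the antimicroRNA arrays in the 3 chosen siRNA arrays (x axis) and in the other 3 (y axis); red points are interferon list genes, blue points other genes named in the text, and the dashed line marks equal differences. Most red points beyond 1 lie below the dashed line, a place favoured beforehand for points picked by a large difference on the x axis. Tpcn1 and Grem1 lie close to the line. Vnn1, by which the sets were chosen, Mal and Postn lie on opposite sides of 0 in the 2 sets.

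Outside the interferon response, the leading higher gene was Postn, which encodes periostin, a matrix protein of bone-forming and healing tissue. It read 10.19, 10.25 and 10.34 in the 3 arrays against 6.93 to 7.15, median 7.04, in the antimicroRNA arrays, a difference of 3.22 (9.32-fold). The other siRNA arrays read 6.80, 6.25 and 6.46, below all 6 antimicroRNA arrays, so the label test did not call it (1.34 ± 0.70, limma adjusted p = 0.163; 0.0119 without siRNA-96 replicate 1). Slc26a7, an anion transporter gene, read 5.82, 5.52 and 5.36 against 2.47 to 2.76, a difference of 2.92 (0.61 in its other probe set), and the other siRNA arrays read 2.66, 2.88 and 3.0. It was highest in siRNA-140 replicate 3, the array in which 44 of the 46 interferon genes were lowest. Its label-test call (1.56 ± 0.52, limma adjusted p = 0.0351) was lost without any 1 of the 6 antimicroRNA arrays or without siRNA-96 replicate 2 or 3, with adjusted p-values of 0.0598 to 0.08. Igf1, the growth factor, and Lifr, a cytokine receptor gene, were named after their values were seen; they differed by 2.48 and 2.00, but other probe sets differed by 0.64 to 2.44 for Igf1 and by 0.34 and 0.41 for Lifr.

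Over all genes 0.698% were counted higher and 0.484% lower, and a single counted gene in a list is too few to set against these shares. The lists of matrix and growth factor signalling genes held some counted members, and they are not complete. Fzd5, a Wnt receptor gene (1.38, and 0.61 in its other probe set), and the matrix gene Ogn (1.07) were counted higher outside them. Both were named after their values were seen. Of 31 extracellular matrix genes, 3 were counted higher and 0 lower: Postn, Tnc (1.35), which encodes the adhesion-modulating tenascin C, and Thbs1 (1.11; 0.69 in another probe set), which encodes thrombospondin 1. Tnc read 7.75, 7.83 and 7.96 against 6.32 to 6.64, with the other siRNA arrays between at 6.96 to 7.13; another of its probe sets differed by -0.08. Of 35 TGF-beta and BMP pathway genes, Tgfb2 was counted higher (1.34) and Grem1 lower (-1.36). Tgfb2, a TGF-beta ligand, read 7.84, 7.86 and 7.61 against 6.21 to 6.56, while the other siRNA arrays lay below, at 5.96, 5.72 and 5.34. Grem1, a secreted BMP antagonist, read 5.17, 5.04 and 5.04 against 6.38 to 6.56, and the other siRNA arrays read 4.78, 5.34 and 5.44. It fell by 1.31 ± 0.10 in the label test (limma adjusted p = 4.58e-06). Rspo3, a Wnt amplifier, was the single gene counted of the 34 listed Wnt pathway genes (1.27, and 0.05 in another probe set). Myl9, a myosin light chain, was that of the 23 listed contractile genes (1.05). Car9, a carbonic anhydrase of hypoxia, was that of the 27 listed glycolysis and hypoxia genes (1.15).

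On the lower side Slurp1, a secreted protein of epithelia, read 5.19, 5.17 and 5.14 against 7.54 to 8.02, median 7.69, and the other siRNA arrays read 7.52, 7.83 and 7.68. Its difference of -2.56 was the largest, 5.89-fold, and only the 3 chosen arrays stood apart. Vamp3, a SNARE of endosomal traffic, read 8.31, 8.18 and 8.49 against 10.37 to 10.55 (-2.15), with the other siRNA arrays lower than all 6 antimicroRNA arrays but less so, at 9.94, 9.88 and 9.88. Mal, a protein of membrane rafts, read 4.50, 4.71 and 4.49 against 6.47 to 6.76 (-2.06), while the other siRNA arrays were higher, at 7.58 to 7.62. Vat1 (-2.01), the aldehyde dehydrogenase gene Aldh3a1 (-1.99), Rhpn2 (-1.96), the sialic acid transporter gene Slc35a1 (-1.65), the sphingomyelin synthase gene Sgms2 (-1.58) and the serpin gene Serpinb9b (-1.47) did not have the other siRNA arrays below all antimicroRNA arrays. The water channel gene Aqp5 (-1.69) did not either, with the 3 arrays at 8.28, 8.14 and 8.17 against 9.74 to 10.08. Adgra2, an adhesion receptor gene, was at 6.38, 6.54 and 6.58 against 8.14 to 8.41 (-1.74), the other siRNA arrays being intermediate at 7.25 to 7.33. Slc25a1, the mitochondrial citrate carrier (-1.59), and the phosphatase gene Ppm1f (-1.49) had such intermediate values too, and a second probe set of Ppm1f differed by 0.08. Other probe sets differed by -0.09 for Sgms2, -0.71 for Mal, -0.13 to -2.09 for Vamp3 and -0.24 and -1.02 for Tpcn1. Tpcn1, an endolysosomal channel gene, read 5.98, 6.08 and 6.19 against 7.33 to 7.77 (-1.45), and the other siRNA arrays were at the same height, 6.37, 6.09 and 6.06.

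**Figure D4:**
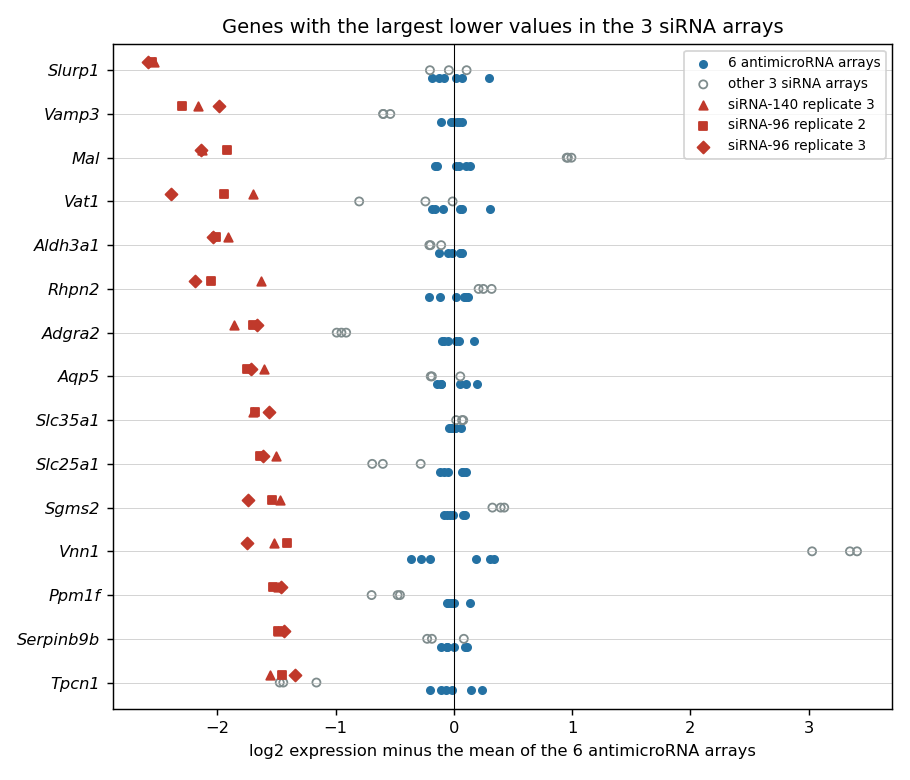
The 15 genes with the largest lower differences, each array plotted as its log2 value minus the mean of the 6 antimicroRNA arrays (x axis), with marks as in the plot of higher genes. The open circles of Tpcn1 lie among the red marks, those of Adgra2 between, those of Slurp1 among the blue points, and those of Mal and Vnn1 on the far side of them. Another probe set of Vnn1 chose the arrays, so its place here only describes that choice.

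For the genes that follow, all 6 siRNA arrays lay below all 6 antimicroRNA arrays. By label, Tpcn1 fell by 1.40 ± 0.09 (limma adjusted p = 1.99e-06), Adgra2 fell by 1.35 ± 0.16 (adjusted p = 9.56e-05), Vamp3 fell by 1.36 ± 0.30 (adjusted p = 0.00417) and the zinc finger genes Zfp317 and Zfp950 fell by 1.18 ± 0.11 (adjusted p = 1.27e-05) and 1.6 ± 0.20 (adjusted p = 0.000119). Vamp3 alone of these lost its call with siRNA-140 against antimicroRNA-140 (adjusted p = 0.0997). Zfp950 was lower still in the other siRNA arrays, at 3.72, 3.70 and 3.09, than in the chosen 3, at 4.27, 4.34 and 4.03. Its difference in the chosen 3 was -1.25, and other probe sets of Zfp950 differed by -0.39 and -0.14. Over all probe sets limma called 14295 (31.7%), 7149 higher and 7146 lower, of which 199 also differed by at least 1 log2 unit; with each array centred on its median the split was 8855 higher and 5931 lower. Of the genes counted above, the label test called 99 of the 127 in the same direction and 59 of the 88, where 16.3% of all genes were called higher and 15.4% lower. The label test holds the 3 chosen arrays and the same 6 antimicroRNA arrays. Such calls were therefore favoured beforehand and are no separate support.

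Cell cycle genes were not counted: 0 of 37 DNA replication genes and 0 of 33 mitosis genes, with median differences of -0.15 and -0.13. The label test called 12 of the 37 and 15 of the 33 lower and 0 higher in either list, where 15.4% of all genes were called lower. Ccnb2, a mitotic cyclin, was -0.41 in the 3 arrays and -0.43 in the other 3, and it fell by 0.42 ± 0.06 by label (limma adjusted p = 0.000349). Likewise 0 genes were counted among 20 adipogenic, 22 chondrogenic, 14 osteogenic, 25 cholesterol and fatty acid synthesis, 23 p53 target, 30 unfolded protein and stress response, 29 immediate early, 20 matrix protease and 24 microRNA processing genes. Their medians ran from -0.13 for the adipogenic to 0.15 for the chondrogenic and osteogenic lists. Of 15 housekeeping genes 0 were counted, with a median of -0.04. Over all genes only 0.698% were counted higher and 0.484% lower. A count of 0 in lists this short therefore says little about their genes.

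Markers of other cell types moved in part with these arrays. The summed level of 16 leukocyte and macrophage markers, as a log2 value, was 9.11 to 9.14 in the 3 siRNA arrays, 9.01 to 9.17 in the other 3 and 8.89 to 8.98 in the antimicroRNA arrays. None was counted, where 0.698% of all genes were counted higher and 0.484% lower. Of the 16, 6 passed the label test as higher and 0 as lower, where 16.3% and 15.4% of all genes did. By label Itgax, an integrin gene, rose by 0.72 (limma adjusted p = 3.98e-05), Csf1r, the receptor gene of macrophage growth, by 0.51 (adjusted p = 0.00226) and Adgre1, a macrophage surface marker, by 0.34 (adjusted p = 0.0108). On the deposited values the calls of Csf1r (adjusted p = 0.165) and Adgre1 (0.932) were lost. They were also lost without the 3 arrays of high 18S signal (limma adjusted p = 0.0568 and 0.185). Another probe set of Csf1r differed by -0.13 in the 3 chosen arrays. Itgam, another integrin gene of this list, went the other way, by -0.31 in the 3 chosen arrays and -0.11 by label (adjusted p = 0.511). Ptprc, which encodes the pan-leukocyte CD45, read 2.28 to 2.55 against 2.18 to 2.55. Of 18 epithelial markers 2 were counted lower, Slurp1 and Msln (-1.30), and the summed level was 8.49 to 8.65 in the 3 arrays, 9.25 to 9.47 in the antimicroRNA arrays and 9.56 to 9.62 in the other siRNA arrays. By label 2 of the 18 were called higher and 4 lower. The 14 endothelial markers summed to 8.77 to 8.93 against 8.76 to 8.94, and the label test called 5 of them higher, among them Tek (0.72) and Cldn5 (0.69), and 2 lower, among them Cdh5 (-0.45). Their part in the differences was not tested, and fewer cells of a type cannot be told apart from less RNA per cell in such bulk samples.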

How the data were processed

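Per the submitters' processing notes, the deposited values are log2 expression values that the authors made with RMA, which corrects background, normalizes arrays and sums up probe sets; its version, and whether both experiments were normalized together, are not given in the sources used here. All 12 columns were quantile-normalized again. Symbols were taken from GEO's platform annotation: of 45037 probe sets left after 64 array controls, 34945 had 1 symbol, 932 several and 9160 none. A gene is represented by its probe set of 1 symbol with the highest mean, which gave 18193 genes; levels of different probe sets were not compared. The number of arrays limits the precision.

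The label test fitted 4 group means to the 12 arrays with limma 3.58.1 in R 4.3.3 (moderated variances, Benjamini-Hochberg, threshold 0.05), and was tested on simulated data. The members, the 30 gene lists and the tests were chosen with earlier results of these data known, and the lists were written from general knowledge. Named are the 3 markers and Vnn1, the 15 largest counted differences each way (predicted genes passed over), up to 6 members of each interferon list and 4 of each other list, all interferon and receptor genes, and the 8 largest label-test differences each way without overlap; exceptions are stated. Promoters are from RefSeq (GRCm38.p6), matched by symbol. Python 3.11.15 with pandas 2.3.3 did the rest. Alternatives tried were the deposited values, median centring, other fold thresholds, a level filter and the mean of probe sets. Others were siRNA-140 against antimicroRNA-140 alone, siRNA-96 against antimicroRNA-449 alone, each array left out, a replicate block, 2 means, an intensity trend and array weights.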

Additional observations from a re-analysis of the deposited data

Results flagged for a closer look

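Among the named genes, the highest or lowest of the 6 antimicroRNA arrays stood far from the other 5 in 9 cases; chance does this in about 1 of 20 groups, and 160 genes were looked at. Of these cases, 5 were high values in antimicroRNA-140 replicate 2, all in interferon list genes: Ifit1 at 4.80 (other arrays 2.84 to 3.16), Rtp4 at 6.35 (5.66 to 5.91), Eif2ak2 at 7.04 (6.43 to 6.54), Lgals3bp at 8.25 (7.72 to 7.92) and Tap2 at 4.56 (4.29 to 4.38). That array was the highest of the 6 in 26 of the 46 interferon genes counted higher (56.5%), against 25.9% of the other genes counted higher and 13.0% of all genes. Ppm1f was high in antimicroRNA-449 replicate 1 (7.37, others 7.18 to 7.24), and Vegfa low there (7.48, others 7.58 to 7.62). In antimicroRNA-449 replicate 2, Ccl5 was high (4.26, others 3.97 to 4.07) and Rrm2 low (10.94, others 11.05 to 11.08).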

How the results depend on the processing

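The 215 genes counted became 509 on the deposited values, 1128 at a 1.5-fold threshold, 43 at a 4-fold threshold and 120 among genes at or above the median level. Leaving out each array in turn gave 206 to 227. Mean probe sets gave 162, median centring 217, siRNA-140 replicate 3 against antimicroRNA-140 alone 209, and siRNA-96 replicates 2 and 3 against antimicroRNA-449 alone 234; siRNA-96 replicate 2 against the antimicroRNA arrays without the 1 of high 18S signal, added after seeing the data, also gave 234. The 14295 probe sets of the label test became 199 with a difference of at least 1 log2 unit as well, 32027 on the deposited values (1021 higher and 31006 lower), 6239 at or above the median level, 7456 for siRNA-96 against antimicroRNA-449 and 6450 for siRNA-140 against antimicroRNA-140. The 199 are a part of the same calls, and the last 3 counts test fewer probe sets or compare fewer arrays. The deposited array medians were 3.96 to 4.02 on the siRNA arrays and 4.32 to 4.38 on the antimicroRNA arrays. Their part in the count of 32027 was not tested. Leave-one-out counts ran from 11838 to 14703, and without the 3 arrays of high 18S signal, added after seeing the data, the count was 9724. Deviations of same-numbered siRNA-140 and siRNA-96 arrays from their group means correlated by 0.4, -0.27 and 0.44 in replicates 1, 2 and 3. In replicate 2 alone these 2 arrays lay on opposite sides of the Vnn1 threshold. All other same-numbered pairs had correlations of -0.05 to 0.11. The label test did not pair arrays by replicate number, and a replicate block gave 14357. Of the single genes, Ddx6 reversed in the label test on the deposited values (-0.06).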
